A study of Rattus norvegicus with 18 samples.

Results

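The nuclear genes of the mitochondrial respiratory chain were followed in the adrenal glands of rats from 3 strains at 2 ages. Members were the gene names on the array that begin with Nduf, Sdh followed by a to d, Uqcr, Cox4 to Cox8 or Atp5, together with Cycs and Cyc1. The rule found 90 of 26583 gene names, and 88 of the 90 lay well above background on all 18 arrays. Cox8c lay above background on 0 arrays and was not tested, and Ndufa13-ps, whose name marks a pseudogene, lay above it on 17. The 88 held 36 subunits of complex I, 4 of complex II, 8 of complex III, 12 of complex IV and 14 of complex V. They also held the carrier Cycs, 4 copies of subunit genes, 5 genes classed as assembly factors and 2 relatives of subunits. The remaining 2 genes with a prefix of the rule, Cox4nb and Atp5sl (now Dmac2), were counted apart.

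Glands came from SHRSP, the stroke-prone spontaneously hypertensive strain, from SHR, the spontaneously hypertensive strain, and from WKY, their normotensive comparison strain, each at 6 and at 3 weeks of age. No group was treated, no genotype beyond the strain name is given, and each of the 6 groups had 3 samples, described in the labels as biological replicates. The sources used here do not give the sex of the rats, whether animals were pooled or whether fat around the gland was trimmed. The strains are inbred lines that differ at many loci, so that a strain difference cannot be assigned to blood pressure by these arrays.

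The respiratory chain passes electrons to oxygen and uses the energy to make ATP. Complex I takes electrons from NADH and complex II from succinate, complex III hands them to cytochrome c, complex IV reduces oxygen, and complex V makes ATP from the proton gradient. In the adrenal cortex, mitochondria also hold the first and last enzymes of steroid synthesis. Most subunits are nuclear genes, a few are encoded by mitochondrial DNA, and some complex IV subunits exist as a general form and a form of muscle or brown fat.

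Array signals are given as the log2 of a probe's signal relative to the 75th percentile of its array, so a difference of 1 is a 2-fold difference. Levels of different probes were not set against each other. A gene was called where limma's Benjamini-Hochberg adjusted p over all genes tested was under 0.05. Errors beside a difference are standard errors, n = 3 arrays in each group.

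The 75th percentile signal ran between 2079 and 2600 across arrays, and 77.8% to 84.8% of spots lay well above background. How precise a value is depends on the number of arrays. All 10 adrenal cortex markers were tested, and their summed signal, in multiples of the 75th percentile, lay between 840 and 1110 on every array. Markers of other tissues were present too. The summed signal of 6 brown fat markers (Ucp1, Cidea, Elovl3, Dio2, Pparg and Adrb3) ran between 26.5 and 111, and that of 5 liver markers was 82.2 in SHR at 3 weeks replicate 2, 2.29 in SHR at 3 weeks replicate 3 and 2.7 in SHRSP at 3 weeks replicate 2, against at most 0.363 elsewhere. Summed chromaffin markers lay at 118 to 148 in SHRSP and 125 to 148 in SHR against 71.3 to 77.8 in WKY at 6 weeks, and at 136 to 153 in SHRSP and 112 to 117 in SHR against 86.2 to 94.5 in WKY at 3 weeks. In whole glands, fewer cells of a type and less RNA per cell cannot be told apart.

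The members whose results are described most fully are shown by the first 30 of the 60 bases of their probe, because near copies of subunit genes exist in the rat and a value belongs to the letters of its probe. Which copy hybridised is not settled by them. The probe positions are those of the rn4 assembly named in the array files, and the sources used here do not give the part of the gene under each probe. No stretch is in capitals, since the longest run shared by the 2 probes of the Ndufb4 pair, and by those of the Ndufa10 pair, was 5 bases.
Ndufb4, chr11:64859496-64859525, plus strand: agttcggcaagggtgcctctgttcttgcat
Ndufb4l1, chr14:7547999-7548028, plus strand: agacagggacaggaaggaaagacttatcca
Ndufa10, chr9:91654921-91654950, minus strand: gctgtggctgctccgagcacgtgtaactta
Ndufa10l1, chr9:91655517-91655546, minus strand: aaccttctagcgtttggaatcatctggggg
Atp5s, chr6:91798434-91798463, plus strand: acctcaagtatttgttcttaagtgatcttc
Cox6a2, chr1:187464610-187464639, minus strand: gctctaagggcccctgaggttccagtggac
Cycs, chr4:78825958-78825987, minus strand: ctgattgggagtggtactcttttctaactt
Cox7a2l, chr6:6834553-6834582, minus strand: gtaattctcctttaatcatgctgcggcttg

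Respiratory chain genes varied little. The median standard deviation of a member over the 18 arrays was 0.15 on the log2 scale, against 0.27 over the 18328 genes that lay well above background everywhere. Within groups it was 0.119 against 0.168, so members also differed less between replicates, and the genes were not matched for brightness. A standard deviation under 0.15 was seen for 43 of the 88 members, or 48.9%, against 13.4% of all such genes. In the 9 comparisons between 2 groups, 57 members were never called. The other 31 gave 74 calls among 792 pairs of member and comparison. Of these calls, 3 were of 2-fold or more, all in the muscle-type isoform Cox6a2. How many of all genes were never called is not given here, so the 57 cannot be set against them. Shares of all genes stand beside the counts of each comparison below.

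Between strains at 3 weeks, few members were called. In SHR against WKY, 0 of 88 members were higher where 8.94% of all genes were, and 3 were lower (3.41%, against 9.24% of all genes). In SHRSP against WKY, 7 members were higher (7.95%, against 14.4% of all genes) and 3 lower (3.41%, against 11.5%). In SHRSP against SHR, 3 members were higher (3.41%, against 4.63% of all genes) and 0 lower, where 3.17% of all genes were. These shares lay below those of all genes in each of the 3 comparisons and in both directions. The median difference of the members was 0.06 in SHR against WKY, 0.13 in SHRSP against WKY and 0.06 in SHRSP against SHR, beside -0.01, 0.08 and 0.09 for all genes.

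Between strains at 6 weeks, 8 members were higher in SHR than in WKY (16.6% of all genes were) and 1 was lower (12.6% of all genes). In SHRSP against WKY, 3 members were higher (11.1% of all genes) and 4 lower (12.8%). In SHRSP against SHR, 0 were higher (6.59% of all genes) and 4 lower (8.59%). Again each share of the 88 lay below that of all genes. The split of calls rested on the scaling of the arrays: the 8 higher and 1 lower in SHR against WKY became 3 and 8 with quantile normalization and 10 and 0 with median scaling, and the 3 higher and 4 lower in SHRSP against WKY became 4 and 9, and 5 and 3. Of all genes, the 3468 higher and 2634 lower in SHR against WKY became 2723 and 2699, and 4414 and 1900. The 2319 higher and 2661 lower in SHRSP against WKY became 2643 and 2376, and 2543 and 1995.

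**Figure D1:**
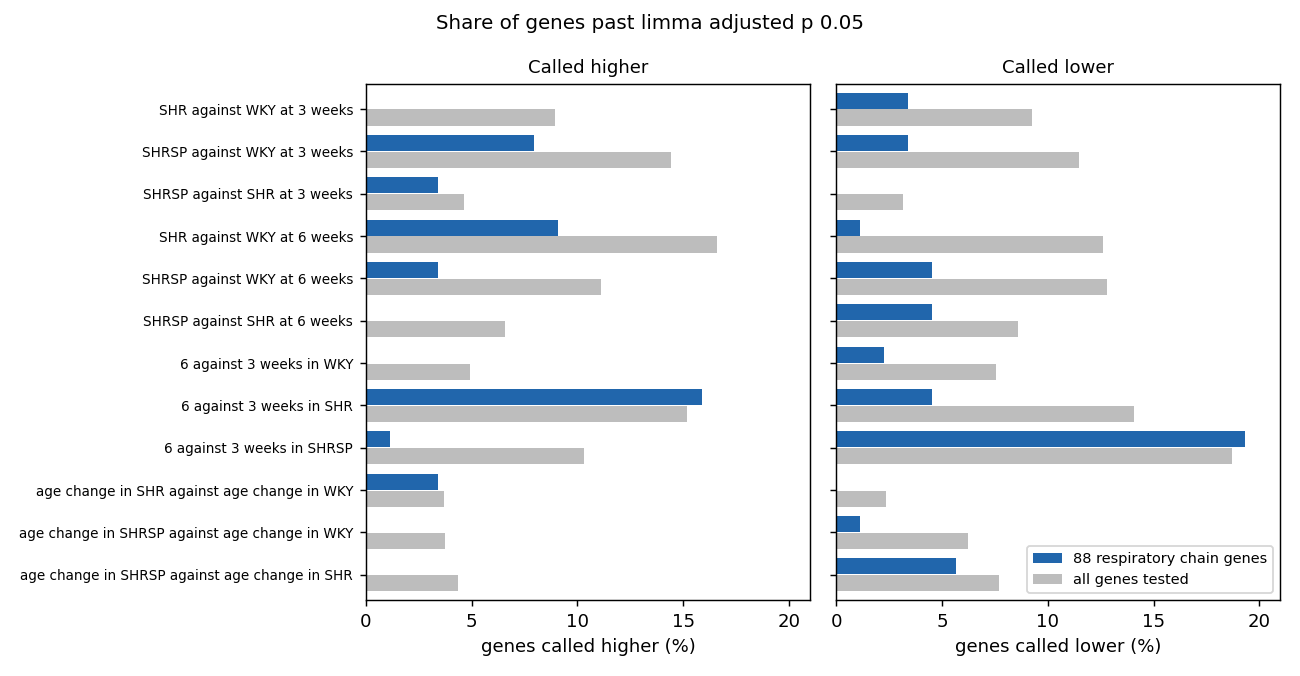
Share of genes past limma's adjusted p of 0.05, in percent, called higher (left) or lower (right) in each of the 12 comparisons, for the 88 respiratory chain genes (blue) and for all genes tested (grey). The blue bar exceeds the grey one in SHR at 6 against 3 weeks (higher, 15.9% against 15.2%) and in SHRSP at 6 against 3 weeks (lower, 19.3% against 18.7%).

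With age, calls were counted in each strain, and whether the counts differ between strains was not tested. In WKY, 0 members were higher at 6 than at 3 weeks (4.91% of all genes were) and 2 were lower (7.57% of all genes). In SHR, 14 were higher (15.9%, against 15.2% of all genes) and 4 lower (4.55%, against 14.1%). In SHRSP, 1 was higher (1.14%, against 10.3% of all genes) and 17 were lower (19.3%, against 18.7%). The shares of higher genes in SHR and of lower genes in SHRSP were thus near those of all genes, and the median difference of the members was -0.15 in SHRSP, 0.01 in SHR and 0.02 in WKY, beside -0.09 in SHRSP, 0.08 in SHR and 0.01 in WKY for all genes.

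The SHR split turned round with the scaling, to 3 higher and 15 lower under quantile normalization, and was 21 higher and 2 lower under median scaling, which put the median of all genes in that comparison at 0.22. The SHRSP split was 3 and 13 under quantile normalization and 3 and 6 under median scaling, and the WKY split 1 and 4, and 0 and 2. Of all genes, 3425 were higher and 2957 lower in SHR under quantile normalization, and 6021 and 1955 under median scaling. In SHRSP these counts were 2748 and 2964, and 2641 and 2552. In WKY they were 1033 and 1626, and 873 and 1006. Brown fat markers moved with the same comparison: their summed signal was 35.6, 35.6 and 52.9 in SHRSP at 6 weeks against 38.4, 80.4 and 60 at 3 weeks, 30.4, 37 and 36.8 in SHR at 6 weeks against 52.5, 81.7 and 111 at 3 weeks, and 84.3, 59.7 and 35.8 in WKY at 6 weeks against 26.5, 32.9 and 61.6 at 3 weeks. With the mean level of those 6 markers as a covariate, an alternative added after the data were seen, 1 member was higher and 5 lower in SHRSP, and 26 higher and 2 lower in SHR. Of all genes, 1451 were then higher and 2567 lower in SHRSP, against 2141 and 3888 without the covariate. In SHR 3780 were higher and 2091 lower, against 3162 and 2941. That mean level lay lower on every 6-week array than on every 3-week array of SHRSP and of SHR. Brown fat content and age therefore cannot be told apart in this fit for those strains. Without SHR at 3 weeks replicate 2, the array with the highest summed liver markers, 6 members were higher and 2 lower with age in SHR. SHR at 3 weeks replicate 3, with a summed liver signal of 2.29, remained in that fit. Counts over all genes are not given for it.

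The age differences were also compared between strains. The age difference was larger in SHR than in WKY for 3 members (3.71% of all genes) and smaller for 0 (2.37%). It was larger in SHRSP than in WKY for 0 (3.74%) and smaller for 1 (6.22%), and larger in SHRSP than in SHR for 0 (4.36%) and smaller for 5 (7.72%). The 5 were Ndufb4, Ndufb4l1, Ndufv3, Sdhaf2 and Cox4nb. Without SHR at 3 weeks replicate 2, 4 of these 5 calls were made and those between SHR and WKY numbered 0. The 2 comparisons with SHR share the SHR arrays.

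**Figure D2:**
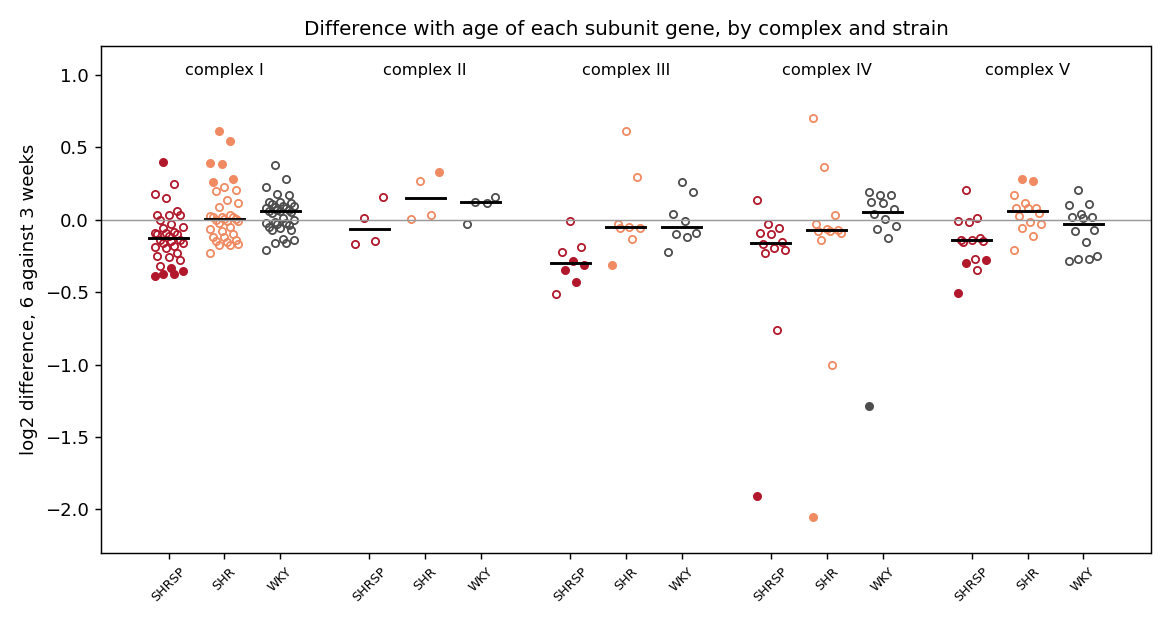
Log2 difference, 6 against 3 weeks, of each subunit gene of complexes I to V in SHRSP (red), SHR (orange) and WKY (grey), with filled points for called genes, open points for the others and black lines for medians. In complex III all 8 SHRSP points lie below 0, with a median of -0.30, and the lowest point of each strain in complex IV is Cox6a2.

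Complex I has 36 subunits among the members. In SHRSP, 1 subunit was higher at 6 than at 3 weeks (10.3% of all genes were) and 5 were lower (18.7% of all genes), and in SHR 6 were higher (15.2% of all genes) and 0 lower (14.1% of all genes). The medians were -0.13 in SHRSP, 0.01 in SHR and 0.06 in WKY. Ndufa1, a small membrane subunit that is needed for assembly of the complex, was higher with age by 0.40 ± 0.12 in SHRSP (limma adjusted p = 0.0207) and 0.38 ± 0.12 in SHR (adjusted p = 0.0251). Its value in WKY was almost the same, 0.38 ± 0.12, and just missed the threshold (adjusted p = 0.0503). Ndufs3, a core subunit of the arm that carries electrons, fell to 2.69, 2.79 and 2.77 in SHRSP at 6 weeks, against 3.08, 3.15 and 3.16 at 3 weeks, and the groups did not overlap. Its difference was -0.38 ± 0.07 (adjusted p = 0.00142), and it kept the call in each fit that left out 1 array. The calls of Ndufa1 did not: its SHRSP call was lost without SHRSP at 3 weeks replicate 1 (adjusted p = 0.0927) or SHRSP at 6 weeks replicate 2 (adjusted p = 0.0858), and its SHR call without SHR at 3 weeks replicates 1 and 2 or SHR at 6 weeks replicates 1 and 3 (adjusted p = 0.0548 to 0.0971).

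Ndufb4, an accessory subunit of the membrane arm, and the copy Ndufb4l1 were called in several of the strain comparisons. Ndufb4 stood at 4.74, 5.03 and 4.89 in SHRSP, 5.36, 5.49 and 5.45 in SHR and 4.85, 5 and 5.01 in WKY at 6 weeks. At 3 weeks it stood at 5.1, 5.3 and 5.39 in SHRSP, 4.71, 4.75 and 4.99 in SHR and 4.84, 4.81 and 4.98 in WKY. The SHR arrays were thus the highest at 6 weeks and the SHRSP arrays the highest at 3 weeks, with no overlap with the other 2 strains at either age. At 6 weeks Ndufb4 was higher in SHR than in WKY by 0.48 ± 0.10 (adjusted p = 0.00324) and lower in SHRSP than in SHR (-0.54 ± 0.10, adjusted p = 0.00267). At 3 weeks it was higher in SHRSP than in SHR by 0.45 ± 0.10 (adjusted p = 0.0158) and than in WKY by 0.39 ± 0.10 (adjusted p = 0.0118).

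With age, Ndufb4 rose by 0.62 ± 0.10 in SHR (adjusted p = 0.000628), differed by -0.38 ± 0.10 in SHRSP (adjusted p = 0.0138) and by 0.08 ± 0.10 in WKY (adjusted p = 0.689). The age difference in SHRSP minus that in SHR was -0.99 ± 0.15 (adjusted p = 0.000565), a call that was kept in each fit that left out 1 array, with slide as a block, under both other scalings (adjusted p = 0.00347 with quantile normalization and 0.000417 with median scaling) and with the brown fat covariate (-1.04, adjusted p = 0.00046). The fall in SHRSP alone was less firm. It was not called with quantile normalization (-0.26, adjusted p = 0.0506) or median scaling (-0.28, adjusted p = 0.0624), with the brown fat covariate (-0.26, adjusted p = 0.16), or without SHRSP at 3 weeks replicate 3 (adjusted p = 0.0647) or SHRSP at 6 weeks replicate 1 (adjusted p = 0.0617). The 3-week call against SHR was lost without SHR replicates 1 and 2 or SHRSP replicates 2 and 3 (adjusted p = 0.0619 to 0.0726), and that against WKY without WKY replicate 2 (adjusted p = 0.0512) or SHRSP replicate 3 (adjusted p = 0.0629) and with the brown fat covariate (0.30, adjusted p = 0.093). The age difference in SHR minus that in WKY, 0.54 ± 0.15 (adjusted p = 0.0455), was lost with quantile normalization (adjusted p = 0.193) and without any of the 12 arrays but SHR at 3 weeks replicate 3 (adjusted p = 0.0548 to 0.112).

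Ndufb4l1 followed the same order. It stood at 3.26, 3.47 and 3.64 in SHRSP, 3.98, 4.16 and 4.12 in SHR and 3.51, 3.72 and 3.37 in WKY at 6 weeks, and at 3.77, 3.88 and 3.8 in SHRSP, 3.3, 3.29 and 3.36 in SHR and 3.31, 3.4 and 3.47 in WKY at 3 weeks. It rose with age by 0.77 ± 0.10 in SHR (adjusted p = 0.000111), and its age difference in SHRSP minus that in SHR was -1.13 ± 0.15 (adjusted p = 0.000214). With age in SHRSP it was at -0.36 ± 0.10 (adjusted p = 0.0185), which was not called with quantile normalization (adjusted p = 0.0693), median scaling (0.0512) or the brown fat covariate (0.28), or without SHRSP at 3 weeks replicate 2 (0.0688) or SHRSP at 6 weeks replicate 1 (0.0859). Over the 18 arrays the levels of the 2 probes correlated with r = 0.92, a description over arrays that share groups and slides. The second Ndufb4 probe gave 0.43 with age in SHR and -0.54 in SHRSP. RefSeq lists 5 coding genes and 7 pseudogenes under Ndufb4 names in the rat, and which of them hybridised to each probe was not tested.

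Ndufv3, a small subunit of the NADH-binding arm, and Sdhaf2, which attaches flavin to the complex II subunit Sdha, were the other respiratory chain members whose age difference was smaller in SHRSP than in SHR. Ndufv3 stood at 4.01, 4.23 and 4.15 in SHRSP, 4.71, 4.47 and 4.42 in SHR and 4.56, 4.42 and 4.45 in WKY at 6 weeks, and at 4.27, 4.62 and 4.57 in SHRSP, 3.97, 4.12 and 4.32 in SHR and 4.29, 4.36 and 4.59 in WKY at 3 weeks. SHRSP lay below both other strains at 6 weeks and SHR was the lowest on average at 3 weeks, where the groups overlapped. The difference of age differences was -0.75 ± 0.17 (SHRSP minus SHR, adjusted p = 0.0128). A second Ndufv3 probe agreed in sign with -0.43 in SHRSP and 0.28 in SHR, but the remaining probe went the other way with 0.23 in SHRSP and -1.02 in SHR, and with the mean of all probes the call was lost (-0.06, adjusted p = 0.801). For Sdhaf2 the value was -0.63 ± 0.13 (adjusted p = 0.00611), from 2.64, 2.72 and 2.79 in SHRSP, 3.13, 2.98 and 3.14 in SHR and 3.07, 2.88 and 2.98 in WKY at 6 weeks, against 2.97, 3.16 and 2.98 in SHRSP, 2.76, 2.7 and 2.87 in SHR and 2.96, 3.07 and 3.23 in WKY at 3 weeks. Both calls between age differences were kept in each fit that left out 1 array.

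**Figure D3:**
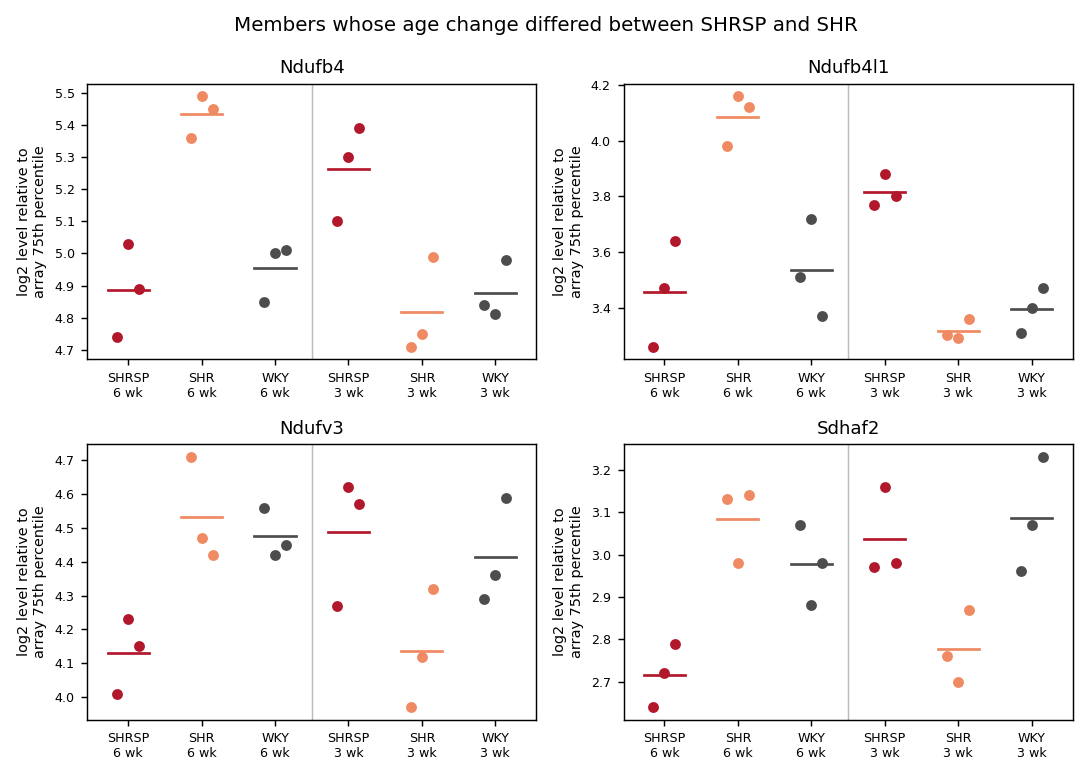
Log2 level relative to the array's 75th percentile of Ndufb4, Ndufb4l1, Ndufv3 and Sdhaf2 on each array (points) with the group mean (lines), for SHRSP, SHR and WKY at 6 weeks (left of the grey line) and at 3 weeks. For Ndufb4 and Ndufb4l1 the SHR points are the highest at 6 weeks and the SHRSP points the highest at 3 weeks.

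Ndufa12, an accessory subunit, was higher than in WKY in SHRSP at both ages (0.26 ± 0.07 at 6 weeks, adjusted p = 0.0192, and 0.26 ± 0.07 at 3 weeks, adjusted p = 0.0198) and in SHR at 6 weeks (0.27 ± 0.07, adjusted p = 0.0136). The 6-week values were 4.41, 4.48 and 4.49 in SHRSP and 4.54, 4.39 and 4.49 in SHR, against 4.21, 4.19 and 4.19 in WKY, with no overlap. The SHR call was kept in each fit that left out 1 array. The SHRSP calls were lost without SHRSP at 6 weeks replicate 2 or 3 (adjusted p = 0.0541 and 0.0612) and without WKY at 3 weeks replicate 1 or SHRSP at 3 weeks replicate 2 or 3 (adjusted p = 0.0832 to 0.0894). Ndufab1, the mitochondrial acyl carrier protein, stood at 2.94, 3.07 and 3.32 in SHRSP, 3.27, 3.42 and 3.5 in SHR and 3.58, 3.51 and 3.44 in WKY at 6 weeks. It was lower in SHRSP than in WKY (-0.40 ± 0.10, adjusted p = 0.00936, and -0.31 with adjusted p = 0.0522 without SHRSP replicate 1).

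Ndufaf4, an assembly factor of complex I, was higher in SHRSP than in WKY by 0.40 ± 0.10 at 6 weeks (adjusted p = 0.00673) and 0.47 ± 0.10 at 3 weeks (adjusted p = 0.00225), and its 2 other probes gave 0.40 and 0.41 at 6 weeks and 0.68 and 0.65 at 3 weeks. The gene has 4 probes on the array, and 1 of them was well above background on only 5 of the 18 arrays. With the mean of all 4, that probe included, neither difference was called (0.34, adjusted p = 0.353, and 0.66, adjusted p = 0.05).

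The probe named Ndufa10l1 differed between strains where that of Ndufa10 did not pass the test. Ndufa10l1 stood at 3.84, 3.87 and 3.87 in SHRSP, 4.02, 3.98 and 3.82 in SHR and 4.44, 4.19 and 4.22 in WKY at 6 weeks, and at 3.7, 3.84 and 3.79 in SHRSP, 3.54, 3.68 and 3.73 in SHR and 4.07, 4.16 and 4.12 in WKY at 3 weeks. All arrays of both hypertensive strains lay below all WKY arrays of the same age. The differences from WKY were -0.42 ± 0.08 in SHRSP (adjusted p = 0.00175) and -0.34 ± 0.08 in SHR (adjusted p = 0.006) at 6 weeks, and -0.34 ± 0.08 in SHRSP (adjusted p = 0.00696) and -0.47 ± 0.08 in SHR (adjusted p = 0.00118) at 3 weeks. A second Ndufa10l1 probe gave -0.22 in SHRSP and -0.15 in SHR at 6 weeks, and -0.18 in SHRSP and -0.23 in SHR at 3 weeks. Ndufa10 was at -0.05 ± 0.10 in SHRSP and 0.03 ± 0.10 in SHR against WKY at 6 weeks, and at 0.02 ± 0.10 in SHRSP and -0.07 ± 0.10 in SHR at 3 weeks. The 2 probes lie 596 bases apart on the same strand of chromosome 9 in the files' build, rn4, whereas RefSeq (GRCr8) places the gene named Ndufa10l1 on chromosome 6. Whether this probe reads that gene was not tested.

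Complex II links the chain to the citric acid cycle, and 2 of its 4 subunits were called once each. The calls were Sdhb in SHR against WKY at 6 weeks (16.6% of all genes were higher) and Sdhc with age in SHR (15.2%). Sdha, the flavin subunit, lay within 0.22 of no difference in all 9 comparisons between 2 groups and was never called. Sdhb, the iron-sulfur subunit, stood at 4.2, 4.2 and 4.3 in SHRSP, 4.36, 4.29 and 4.2 in SHR and 4.1, 3.94 and 3.76 in WKY at 6 weeks, so that both hypertensive strains lay above WKY. SHR was higher than WKY by 0.35 ± 0.11 (adjusted p = 0.024), and SHRSP was at 0.30 ± 0.11 (adjusted p = 0.055). The SHR call was lost without WKY replicate 3 (adjusted p = 0.102) or SHR replicate 1 or 2 (adjusted p = 0.0726 and 0.0548), and with slide as a block (0.0848). Sdhc, a membrane anchor, was higher with age in SHR by 0.33 ± 0.10 (adjusted p = 0.0255), at 3.42, 3.56 and 3.66 against 3.19, 3.16 and 3.3, a call lost without SHR at 3 weeks replicate 1 or 2 or SHR at 6 weeks replicate 2 or 3 (adjusted p = 0.0641 to 0.0998), and with slide as a block (0.0798). Sdhd, the other anchor, was not called, with differences between -0.15 and 0.19.

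Complex III showed the lowest median with age in SHRSP. All 8 subunits lay below 0, with a median of -0.30, and 4 were called lower (18.7% of all genes were). In SHR 1 was lower (14.1% of all genes) and 0 higher (15.2%), and in WKY 0 were lower (7.57%) or higher (4.91%). Uqcrc1, a core subunit, stood at 2.74, 2.6 and 2.64 in SHRSP at 6 weeks, against 2.88, 3.13 and 3.27 at 3 weeks (-0.43 ± 0.12, adjusted p = 0.0173). Cyc1, the cytochrome that passes electrons to cytochrome c, stood at 5.23, 5.32 and 5.35 against 5.45, 5.7 and 5.7 (-0.32 ± 0.10, adjusted p = 0.0248). Uqcrfs1, the Rieske iron-sulfur subunit, was at -0.34 ± 0.10 (adjusted p = 0.0146), and Uqcrc2, the second core subunit, at -0.29 ± 0.10 (adjusted p = 0.0384). In each of these 4 the SHRSP arrays of the 2 ages did not overlap.

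The calls in complex III were not firm. With slide as a block, Uqcrc2 (adjusted p = 0.0718) and Uqcrfs1 (0.0554) were not called in SHRSP, nor was Uqcrfs1 in SHR (0.136). With the brown fat covariate 0 of the 8 were called and the median was -0.13. With median scaling 0 were called (median -0.20), and with quantile normalization 3 (median -0.22). Each of the 4 calls was lost without some single SHRSP array: Uqcrc1 without replicate 2 or 3 at 3 weeks or 2 at 6 weeks (adjusted p = 0.0561 to 0.0829), Cyc1 without replicate 2 or 3 at 3 weeks or 1 or 2 at 6 weeks (0.0542 to 0.0955), Uqcrfs1 without replicate 2 or 3 at 3 weeks (0.0599 and 0.0506), and Uqcrc2 without any of the 6 (0.0637 to 0.112). Against WKY at 3 weeks, Uqcrc1 was higher in SHRSP by 0.36 ± 0.12 (adjusted p = 0.0435), a call lost without any WKY array or without SHRSP replicate 2 or 3 (adjusted p = 0.0556 to 0.187). The age difference of complex III subunits in SHRSP against that in WKY was called for 0 of 8 (median -0.23). Uqcrq, a small subunit, was the only member past 2-fold in a strain comparison and was not called. It stood at -2.27, -1.65 and -1.19 in SHRSP and -1.51, -0.23 and -0.18 in SHR at 6 weeks (-1.06 ± 0.35, adjusted p = 0.0593).

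Cycs, which encodes somatic cytochrome c, the mobile carrier between complexes III and IV, was lower with age in both hypertensive strains. It stood at 3.33, 3.09 and 3.57 in SHRSP, 3.19, 3.4 and 3.69 in SHR and 3.67, 3.45 and 3.44 in WKY at 6 weeks. At 3 weeks it stood at 3.69, 4.09 and 4.19 in SHRSP, 3.61, 4.01 and 4.35 in SHR and 3.25, 3.32 and 3.63 in WKY. The hypertensive strains were higher on average than WKY at 3 weeks, and the 3 strains overlapped at 6 weeks. The age difference was -0.66 ± 0.20 in SHRSP (adjusted p = 0.0212), -0.56 ± 0.20 in SHR (adjusted p = 0.0449), where the ages overlapped, and 0.12 ± 0.20 in WKY (adjusted p = 0.75). At 3 weeks it was higher in SHRSP than in WKY by 0.59 ± 0.20 (adjusted p = 0.0388), and the SHR value was 0.59 ± 0.20 (adjusted p = 0.0514, and 0.0365 with quantile normalization). A second Cycs probe gave -0.82 in SHRSP and -0.81 in SHR with age.

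Each Cycs call was lost without some single array. In SHRSP with age these were replicates 2 and 3 at 3 weeks and 1 and 2 at 6 weeks (adjusted p = 0.0504 to 0.092), in SHR replicates 2 and 3 at 3 weeks and 1 and 2 at 6 weeks (0.103 to 0.179), and in SHRSP against WKY at 3 weeks SHRSP replicates 2 and 3 and WKY replicates 1 and 2 (0.115 to 0.151). Of 7 brown fat markers tested, 2 were lower with age in SHRSP and 4 in SHR (18.7% and 14.1% of all genes were), and 0 were higher in either. With the brown fat covariate the Cycs value was -0.20 in SHRSP (adjusted p = 0.391) and 0.08 in SHR (adjusted p = 0.765) with age, and 0.22 in SHRSP against WKY at 3 weeks (adjusted p = 0.338). Ucp1, the uncoupling protein of brown fat, had the lowest age difference of these markers in SHR. It stood at -0.81, 2.58 and 2.21 in SHR at 6 weeks, against 4.61, 5.47 and 5.87 at 3 weeks. Cidea, another of them, stood at 4.87, 4.88 and 4.9 against 4.69, 5.1 and 5.58, so that the ages overlapped.

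Of the 12 complex IV subunits, Cox6a2 was the only one called in a comparison. It is the heart and skeletal muscle isoform of a regulatory subunit whose general isoform is Cox6a1. Cox6a2 stood at -5.87, -5.31 and -5.85 in SHRSP, -6.12, -5.73 and -5.71 in SHR and -5.15, -5.19 and -5.28 in WKY at 6 weeks, and at -3.6, -3.67 and -4.05 in SHRSP, -2.73, -4.5 and -4.17 in SHR and -3.9, -4 and -3.86 in WKY at 3 weeks. The Cox6a2 signal was thus low, at -6.12 to -2.73, though well above background on all 18 arrays. The 6-week arrays lay below the 3-week arrays of the same strain without overlap in all 3 strains. The age difference was -1.91 ± 0.33 in SHRSP (adjusted p = 0.000625), -2.06 ± 0.33 in SHR (adjusted p = 0.000412) and -1.29 ± 0.33 in WKY (adjusted p = 0.0195). The SHRSP and SHR calls were kept in each fit that left out 1 array, and the WKY call was lost without WKY at 3 weeks replicate 1 (adjusted p = 0.061) or 3 (0.0661) or WKY at 6 weeks replicate 2 (0.0502). With the brown fat covariate the values were -2.07 in SHRSP, -2.29 in SHR and -1.23 in WKY, all called. The summed signal of 8 other muscle markers lay between 0.579 and 1.52 and overlapped between ages in each strain. Of the 9 muscle markers tested, Cox6a2 among them, 1 was higher and 1 lower with age in SHRSP (10.3% and 18.7% of all genes). In SHR 1 was higher and 2 lower (15.2% and 14.1% of all genes), and in WKY 3 and 1 (4.91% and 7.57%). Cox6a1 differed by at most 0.09 with age and was not called.

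The other isoform pairs did not pass the test. Cox8b, the muscle and brown fat form beside the general Cox8a, stood at 1.81, 1.87 and 2.15 in SHRSP, 1.62, 1.69 and 1.73 in SHR and 3, 2.44 and 2.02 in WKY at 6 weeks, and at 2.11, 3.2 and 2.81 in SHRSP, 2.1, 2.65 and 3.31 in SHR and 1.83, 1.94 and 3.11 in WKY at 3 weeks. Its age difference was -0.76 ± 0.37 in SHRSP (adjusted p = 0.144) and -1.01 ± 0.37 in SHR (adjusted p = 0.0558), and 0.07 in SHRSP and 0.15 in SHR with the brown fat covariate. With quantile normalization the SHR value was called (adjusted p = 0.0285). Cox8a lay between -0.10 and 0.07 in all comparisons. Cox4i2, the form of lung and of low oxygen, spread over 1.34 to 2.97 with overlap of all groups, and its largest difference was 0.70 ± 0.38 with age in SHR (adjusted p = 0.167). Cox4i1 lay between -0.23 and 0.16, Cox7a2 between -0.17 and 0.23 and Ndufa4, now counted with complex IV by many authors, between -0.18 and 0.16. Cox6b1, Cox6b2, Cox7a1 and Ndufa4l2 were not analysed here.

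**Figure D4:**
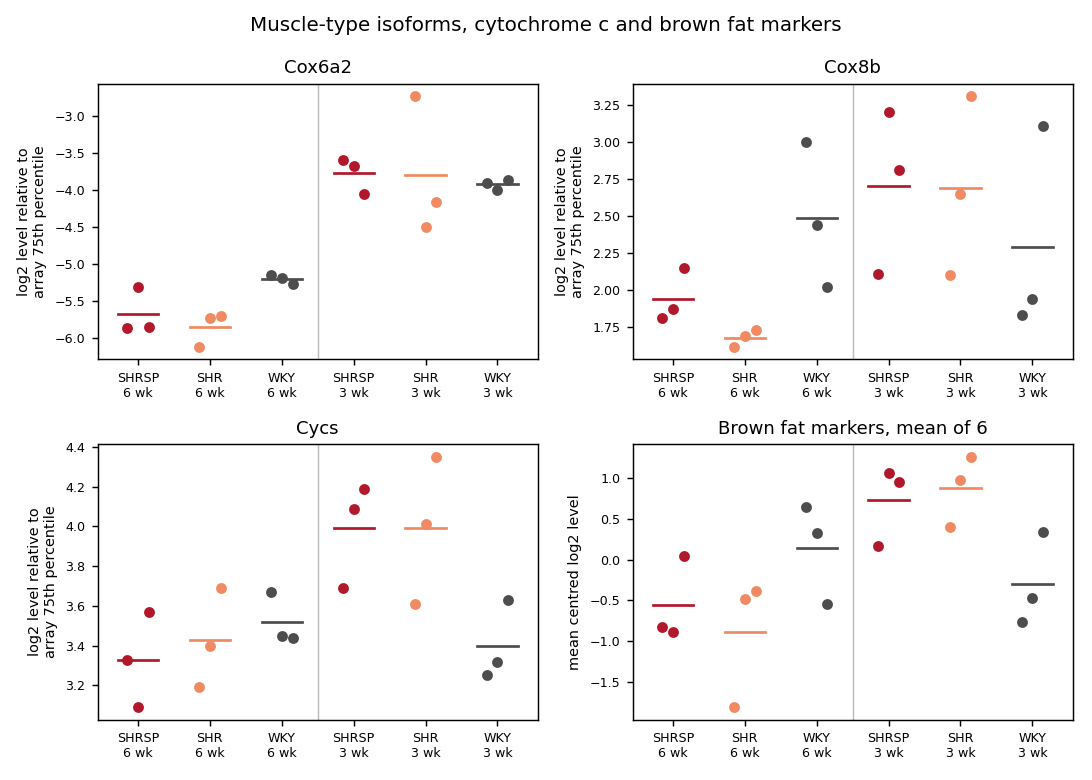
Log2 level relative to the array's 75th percentile of Cox6a2, Cox8b and Cycs, and the mean centred log2 level of 6 brown fat markers, on each array (points) with the group mean (lines), for SHRSP, SHR and WKY at 6 weeks (left of the grey line) and at 3 weeks. Cox6a2 is lower at 6 weeks in all 3 strains, whereas the brown fat markers at 6 weeks lie below those at 3 weeks in SHRSP and in SHR and overlap them in WKY.

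Of the 14 ATP synthase subunits, 3 were lower with age in SHRSP (18.7% of all genes were) and 2 higher with age in SHR (15.2% of all genes). With slide as a block, 3 of these 5 calls were lost: Atp5e (adjusted p = 0.106) and Atp5g1 (0.0618) in SHRSP and Atp5j (0.0706) in SHR. Atp5c1, the rotating gamma subunit, stood at 3.34, 3.31 and 3.37 in SHRSP at 6 weeks, against 3.81, 3.84 and 3.88 at 3 weeks, a difference of -0.50 ± 0.08 (adjusted p = 0.00045) that was called in each fit that left out 1 array. Atp5e, the epsilon subunit, was at -0.30 ± 0.10 (adjusted p = 0.0324) and Atp5g1, a ring subunit, at -0.28 ± 0.10 (adjusted p = 0.045) in SHRSP. In SHR, the ring subunit Atp5g2 was higher with age by 0.27 ± 0.07 (adjusted p = 0.0136) and the coupling factor Atp5j by 0.28 ± 0.08 (adjusted p = 0.0201). The call of Atp5g2 was kept in each fit that left out 1 array, and that of Atp5j was lost without SHR replicate 2 of either age (adjusted p = 0.0781 at 3 weeks and 0.079 at 6 weeks). Those of Atp5e and Atp5g1 were lost without most SHRSP arrays, with the exception of SHRSP at 3 weeks replicate 1 for both (adjusted p = 0.0583 to 0.138 and 0.0653 to 0.179).

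Atp5b, the catalytic beta subunit, was higher in SHR than in WKY at 6 weeks by 0.37 ± 0.12 (adjusted p = 0.0359), with 3.24, 3.11 and 3.13 in SHR against 3.05, 2.44 and 2.88 in WKY. One WKY array sets much of that value: without WKY replicate 2 it was 0.20 (adjusted p = 0.127), and it was also lost without any SHR array (adjusted p = 0.0556 to 0.0993) and with quantile normalization (0.21, adjusted p = 0.227). A second probe of Atp5d, the delta subunit, gave 1.22 in SHRSP and 1.81 in SHR against WKY at 6 weeks, where the brighter probe gave 0.15 in SHRSP and 0.25 in SHR, so the 2 probes of that gene disagreed in size.

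Atp5s, named Dmac2l in RefSeq and known as a factor that couples ATP synthase, stood at -1.84, -1.63 and -1.51 in SHRSP, -1.41, -1.49 and -1.38 in SHR and -1.29, -1.3 and -1.19 in WKY at 6 weeks, and at -1.09, -0.99 and -1.15 in SHRSP, -0.8, -0.93 and -0.86 in SHR and -0.73, -0.69 and -0.6 in WKY at 3 weeks. The order SHRSP, SHR, WKY held at both ages without overlap, and every 6-week array lay below every 3-week array. With age it was at -0.58 ± 0.09 in SHRSP (adjusted p = 0.000193), -0.56 ± 0.09 in SHR (adjusted p = 0.000297) and -0.59 ± 0.09 in WKY (adjusted p = 0.00057). SHRSP against WKY was at -0.40 ± 0.09 at 6 weeks (adjusted p = 0.00335) and -0.41 ± 0.09 at 3 weeks (adjusted p = 0.0028), and the differences of SHR from both neighbours were not called. All 5 calls were kept in each fit that left out 1 array.

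Cox7a2l, which in mice and humans takes part in joining complexes III and IV into supercomplexes, stood at 3.71, 3.93 and 3.9 in SHRSP and 3.66, 3.63 and 3.79 in SHR, against 4.06, 4.06 and 4.17 in WKY at 3 weeks. It was lower than in WKY in both, with -0.26 ± 0.08 in SHRSP (adjusted p = 0.0272) and -0.41 ± 0.08 in SHR (adjusted p = 0.00239). At 6 weeks it was at -0.05 ± 0.08 in SHRSP and 0.06 ± 0.08 in SHR, neither called, and the age difference was larger in SHR than in WKY by 0.47 ± 0.11 (adjusted p = 0.0275). The SHR call at 3 weeks was kept in each fit that left out 1 array, the SHRSP call was lost without any WKY array or SHRSP replicate 1 (adjusted p = 0.051 to 0.118), and that between age differences without 9 of the 12 arrays (adjusted p = 0.0522 to 0.0787), all but WKY at 6 weeks replicate 3, SHR at 3 weeks replicate 3 and SHR at 6 weeks replicate 2. Cox4nb, now Emc8 and part of a complex of the endoplasmic reticulum, shares only the prefix. It was higher than in WKY by 0.52 ± 0.11 in SHRSP (adjusted p = 0.00351) and 0.65 ± 0.11 in SHR (adjusted p = 0.000638) at 6 weeks.

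**Figure D5:**
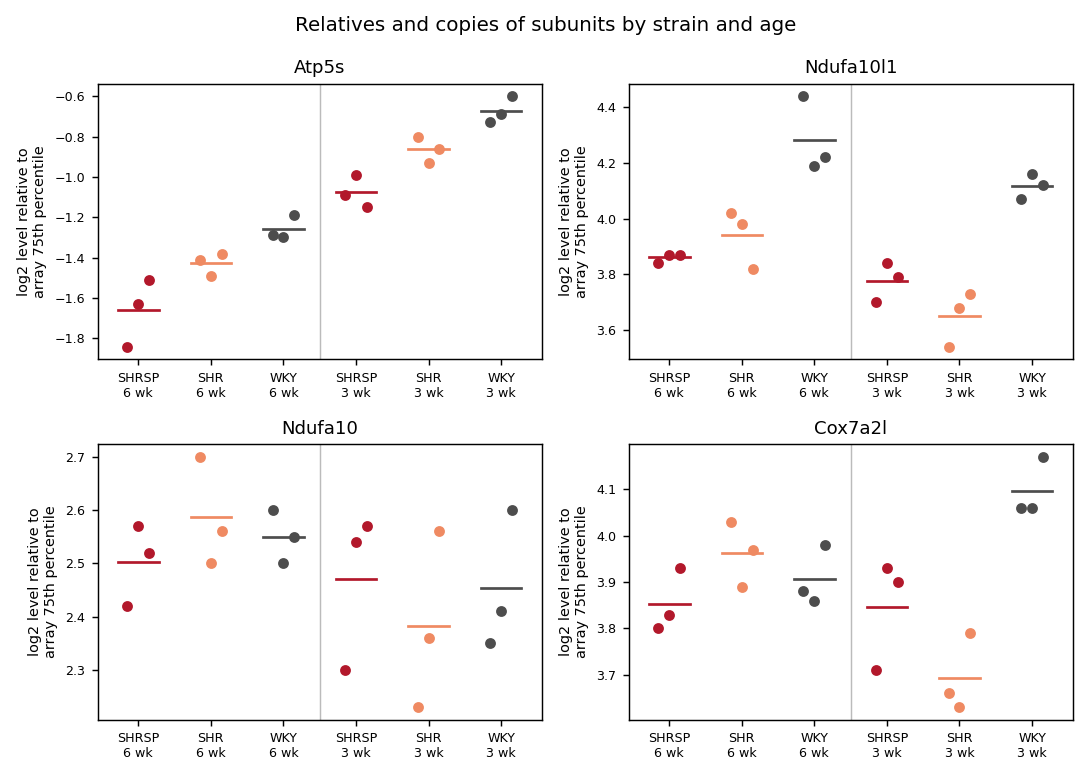
Log2 level relative to the array's 75th percentile of Atp5s, Ndufa10l1, Ndufa10 and Cox7a2l on each array (points) with the group mean (lines), for SHRSP, SHR and WKY at 6 weeks (left of the grey line) and at 3 weeks. At each age Atp5s is lowest in SHRSP, next in SHR and highest in WKY, and Ndufa10l1 lies below WKY in both hypertensive strains.

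Slides and replicates were compared beside these calls. Within slides that held both groups, each of the 74 calls between 2 groups kept its sign. The groups did not overlap in any of these calls but Cycs with age in SHR, so that sign was fixed in advance. With slide as a block, 72 of all 83 calls, those between age differences included, were also made. The 11 lost are the 8 given above in complexes II, III and V, Ndufb5 in SHR against WKY at 6 weeks (adjusted p = 0.0528), and Ndufv3 (0.0577) and Sdhaf2 (0.0526) with age in SHRSP. Among 28 called values of the 8 genes with further probes, 25 had the same sign on the other probe. In fits that left out 1 array, 37 of the 83 calls were made every time. Atp5s, for example, lay between -0.59 and -0.56 within slides with age in WKY, Cox6a2 between -1.42 and -1.25 with age in WKY, and Ndufb4 between -0.61 and -0.58 in SHRSP against SHR at 6 weeks.

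Promoter letters of 73 members were matched in RefSeq (GRCr8 assembly, windows with 250 bases before and 50 after the start). A pair of motifs known for nuclear genes of mitochondria were searched on both strands: GCGCATGC, the core that binds NRF-1, and CCGGAAG, an ETS core of the kind bound by GABP. The NRF-1 core stood in 10 of the 73 windows, or 13.7%, against 2.47% of 33469 windows of all genes. The ETS core stood in 23, or 31.5%, against 8.75%. The members' windows were also richer in G and C, with a median of 57.7% against 51.7%. Among the 16 matched members called lower with age in SHRSP, 3 held the NRF-1 core and 3 the ETS core.

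The 250 bases before the start are printed for Cycs and Uqcrc1, which were lower with age in SHRSP and hold the NRF-1 core (in capitals, on the minus strand in Cycs), and for Cox6a2, which was lower with age in all strains and holds neither motif. A match is a description of these letters only.
Cycs, GRCr8 chr4:80984768-80985017, minus strand: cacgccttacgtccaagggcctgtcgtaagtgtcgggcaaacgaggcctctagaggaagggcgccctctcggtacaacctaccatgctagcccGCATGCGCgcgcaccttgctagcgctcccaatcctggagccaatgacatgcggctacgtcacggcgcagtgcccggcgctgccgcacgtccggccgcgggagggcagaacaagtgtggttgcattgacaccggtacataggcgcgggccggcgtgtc
Uqcrc1, GRCr8 chr8:118467973-118468222, plus strand: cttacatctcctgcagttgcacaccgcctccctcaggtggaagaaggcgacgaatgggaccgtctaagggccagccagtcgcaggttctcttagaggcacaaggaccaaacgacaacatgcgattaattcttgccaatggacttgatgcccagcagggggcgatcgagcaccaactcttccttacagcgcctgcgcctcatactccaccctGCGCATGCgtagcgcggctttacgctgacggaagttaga
Cox6a2, GRCr8 chr1:192219717-192219966, minus strand: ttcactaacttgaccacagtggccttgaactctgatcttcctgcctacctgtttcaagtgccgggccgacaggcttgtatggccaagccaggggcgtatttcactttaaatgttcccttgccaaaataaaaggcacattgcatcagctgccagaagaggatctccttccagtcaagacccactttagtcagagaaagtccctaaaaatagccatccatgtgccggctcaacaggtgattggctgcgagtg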

How the data were processed

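Total RNA of 18 adrenal samples, 3 in each group of strain and age, was labelled with Cy3 and hybridised to 1-colour Agilent arrays. The scanner output came from version 10.5.1.1 of Agilent Feature Extraction, per the submitters' processing notes. Values deposited by the authors are linear signal intensities, with no normalization between arrays per the file headers, and their value table was identical to them. The probe annotation names rn4, and a RefSeq table (GRCr8) matched 79 of the 90 members.

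From the deposited intensities, log2 values minus each array's 75th percentile were computed, control and outlier spots were left out, spots of a probe were averaged, and the brightest probe represented a gene. A gene was tested if some group had it well above background on each of its 3 arrays, 20837 in all, of which 180 lacked a value on an array. One model of 6 group means was fitted with limma 3.58.1 in R 4.3.3 (lmFit, eBayes, 12 residual degrees of freedom), and Benjamini-Hochberg adjusted p-values were taken over all genes in each of 9 comparisons between groups and 3 of age differences. In data made with known differences for SHR against WKY at 6 weeks, 14 of 100 genes changed by 0.4 and 75 of 100 changed by 1 on the log2 scale were called, with 3 false calls among 20837 genes.

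Members and lists were chosen with earlier results of these data known. Members to describe were up to 5 called members of each comparison between groups and 3 of each between age differences, largest first. Complex II, Cycs, Cyc1 and the isoform pairs were added. Not every difference or array value of these members is printed: for Cox4nb, Ndufb4l1 and Sdhaf2 some called strain differences are left out. Ndufa1, Ndufa10, Ndufa12, Ndufb5, Ndufs3, Uqcrc2, Uqcrfs1, Uqcrq and the ATP synthase subunits beside Atp5b and Atp5c1 were named after their values were seen. A member that the naming rule takes in is counted but not reported here by name. Where nothing says that replicates came from separate animals beyond the word biological, p-values measure the spread between these samples. The arrays lay on 5 slides, and no slide held all 6 groups. Python 3.11.15 and matplotlib 3.10.9 were used for sequences and figures.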

Additional observations from a re-analysis of the deposited data

Results flagged for a closer look

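A change with age that differed between strains, by limma's test of the difference itself, was found for 6 genes and gave 9 values past an adjusted p of 0.05. Between SHRSP and SHR the age difference was smaller in SHRSP for Ndufb4l1 (-1.13), Ndufb4 (-0.99), Ndufv3 (-0.75), Sdhaf2 (-0.63) and Cox4nb (-0.57). Between SHRSP and WKY it was smaller in SHRSP for Ndufb4l1 (-0.49). Between SHR and WKY it was larger in SHR for Ndufb4l1 (0.63), Ndufb4 (0.54) and Cox7a2l (0.47). The comparisons share groups, so these values are not independent of each other. Of the 9, the Ndufb4, Ndufb4l1, Ndufv3 and Sdhaf2 differences between SHRSP and SHR were called in each fit that left out 1 array. The Ndufv3 probes disagreed in sign, however, and with the mean of all its probes the Ndufv3 call was lost. Groups of 3 were not searched for single outlying arrays.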

How the results depend on the processing

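Most counts of called members moved with the settings, and the named values kept their sign with 1 exception. Counts over all genes moved too, and stand in the same order after those of the members, with the main fit in brackets. With slide as a block, SHR against WKY at 3 weeks gave 7 called members (3 in the fit without it), SHRSP against WKY at 6 weeks 12 (7), SHRSP against SHR at 6 weeks 11 (4), and the comparisons of age differences 5 for SHR against WKY (3), 9 for SHRSP against SHR (5) and 2 for SHRSP against WKY (1). All genes called numbered 5279 (3788), 6069 (4980), 4067 (3162), 2679 (1267), 4204 (2516) and 2788 (2076). Replicate numbers did not pair the samples, since 10 of 27 correlations of deviations were over 0.1 and they ran between -0.526 and 0.583. With the replicate number as a block, SHR against WKY at 3 weeks gave 5 and the age differences of SHRSP against WKY 3. All genes called numbered 3951 (3788) and 2364 (2076). All 44 named values kept their call.

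Quantile normalization gave 6 for SHR against WKY at 3 weeks, 13 for SHRSP against WKY at 6 weeks, 2 for SHRSP against SHR at 6 weeks, 5 with age in WKY (2) and 0 for the age differences of SHR against WKY. All genes called numbered 3845 (3788), 5019 (4980), 2865 (3162), 2659 (2602) and 826 (1267). Median scaling gave 9 with age in SHRSP (18), 7 for SHRSP against SHR at 6 weeks, 5 for the age differences of SHR against WKY and 0 for those of SHRSP against WKY. All genes called numbered 5193 (6029), 2796 (3162), 1701 (1267) and 1695 (2076). Normexp background correction gave 4 with age in WKY (all genes 2351, main fit 2602). The age differences of SHRSP against WKY gave 3 with the mean of all probes and 0 with no filter on dim genes. There all genes called numbered 1987 and 1591 (2076). Fits on only the arrays of the groups compared, which have fewer residual degrees of freedom, gave 5 with age in SHR (18), 7 with age in SHRSP, 4 for SHR against WKY at 6 weeks (9), 1 for SHRSP against SHR at 3 weeks (3), 2 for SHRSP against SHR at 6 weeks, and 0 for SHRSP against WKY at 6 weeks and for its age differences. All genes called numbered 3546 (6103), 4713 (6029), 2603 (6102), 987 (1625), 1197 (3162), 2357 (4980) and 1866 (2076).

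With the brown fat covariate, chosen after seeing the data, the counts were 28 with age in SHR, 6 with age in SHRSP, 15 for SHR against WKY at 6 weeks, 10 for SHRSP against SHR at 6 weeks, 5 for SHRSP against WKY at 3 weeks (10), and 1, 8 and 0 for the age differences of SHR against WKY, SHRSP against SHR and SHRSP against WKY. All genes called numbered 5871 (6103), 4018 (6029), 5916 (6102), 3634 (3162) and 3902 (5409). For the age differences they numbered 165 (1267), 3291 (2516) and 744 (2076). Cycs with age in SHR changed sign there, to 0.078. Apart from the added covariate, the cause of these shifts was not tested.

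Leaving out 1 array at a time gave 2 to 4 calls for SHR against WKY, 6 to 13 for SHRSP against WKY and 1 to 4 for SHRSP against SHR at 3 weeks, 6 to 10, 6 to 10 and 2 to 7 at 6 weeks, 1 to 6 with age in WKY, 8 to 16 in SHR and 7 to 17 in SHRSP, and 0 to 3, 0 to 2 and 4 to 6 for the age differences of SHR against WKY, SHRSP against WKY and SHRSP against SHR. Counts over all genes are not given for the fits that left out 1 array. The value table of the series gave the same counts as the main fit. In the test on data with known differences, most genes changed by 0.4 on the log2 scale were missed. Far fewer genes differed there than the 6102 called in SHR against WKY at 6 weeks, which makes the adjusted p stricter. Its shares therefore do not give the power for the members, and Atp5b was called in that comparison at 0.37. With 3 arrays in a group, members that were not called are not shown to be equal.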

Other observations

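Other genes of mitochondria were listed beside the respiratory chain and are given as counts. Of 17 citric acid cycle genes tested, 10 were lower and 0 higher at 6 than at 3 weeks in SHRSP (18.7% and 10.3% of all genes were), 8 lower and 1 higher in SHR (14.1% and 15.2% of all genes), and 2 lower and 0 higher in WKY (7.57% and 4.91% of all genes), with medians of -0.41 in SHRSP, -0.19 in SHR and -0.09 in WKY. Idh3a, a subunit of isocitrate dehydrogenase, was at -0.93 ± 0.26 in SHRSP (limma adjusted p = 0.016) and -1.27 ± 0.26 in SHR (adjusted p = 0.0026), and Pdhb, a subunit of pyruvate dehydrogenase, at -0.94 ± 0.18 in SHRSP (adjusted p = 0.00147) and -0.99 ± 0.18 in SHR (adjusted p = 0.00112). Brown fat markers were lower in the same strains with age, 2 of 7 in SHRSP and 4 of 7 in SHR, and their part in these values was not tested. Of 11 subunits encoded by mitochondrial DNA, 4 were lower with age in SHRSP (median -0.31, where 18.7% of all genes were lower), among them cytochrome c oxidase subunit 3 (-0.39 ± 0.08, adjusted p = 0.00209), and 0 were called in SHR or WKY.

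Among 16 regulators of respiratory chain genes, Ppargc1a, a coactivator that raises mitochondrial content in brown fat and muscle, was dim. It was well above background on 2 of 3 arrays in SHRSP and 1 of 3 in SHR at 6 weeks, and on all 3 in each other group, so its 6-week levels in these strains and the differences from them are uncertain. It stood at -8.08, -6.83 and -7.22 in SHRSP, -8.61, -7.49 and -7.75 in SHR and -5.68, -5.35 and -6.54 in WKY at 6 weeks, and at -5.92, -5.63 and -5.67 in SHRSP, -5.9, -4.53 and -5.2 in SHR and -6.7, -6.83 and -5.97 in WKY at 3 weeks. With age it was lower in SHRSP (-1.64 ± 0.42, adjusted p = 0.00919) and in SHR (-2.74 ± 0.42, adjusted p = 0.000305), and at 0.64 ± 0.42 in WKY (adjusted p = 0.373). Of the 16, 0 were higher and 4 lower with age in SHRSP (10.3% and 18.7% of all genes). In SHR 2 and 6 were (15.2% and 14.1%), and in WKY 0 and 1 (4.91% and 7.57%). In SHRSP against WKY 2 were higher and 3 lower at 6 weeks (11.1% and 12.8%), and 3 and 0 at 3 weeks (14.4% and 11.5%). Among the higher, Tfb2m, a factor of mitochondrial transcription, was called at both ages (0.29 ± 0.07 at 6 weeks, adjusted p = 0.00798, and 0.41 ± 0.07 at 3 weeks, adjusted p = 0.000705). Ucp2, an uncoupling protein relative, was higher with age in SHRSP (1.15 ± 0.17, adjusted p = 0.000204), SHR (1.53 ± 0.17, adjusted p = 2.55e-05) and WKY (1.16 ± 0.17, adjusted p = 0.000593). It belongs to a list of 11 mitochondrial antioxidant genes. Of these, 2 were higher and 1 lower with age in SHRSP, 5 and 0 in SHR, and 1 and 0 in WKY, beside the same shares of all genes.

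The 24 cytosolic ribosomal protein genes listed, which like most members are short and abundant, gave 14 higher and 0 lower in SHR against WKY at 6 weeks (16.6% and 12.6% of all genes were), and 1 higher with quantile normalization and 17 with median scaling. The pseudogene Ndufa13-ps was higher in SHRSP than in SHR at 3 weeks by 1.07 ± 0.19 (adjusted p = 0.00289), at -5.68, -5.81 and -5.76 in SHRSP against -6.98, -6.75 and -6.73 in SHR.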
